A study of Mus musculus with 8 samples.

Results

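The collagen chain genes are the genes with a symbol made of Col, a collagen number, the letter a and a chain number. Of the 19505 genes measured, 42 met this rule, each with 1 probe set. Col7a1 and Col12a1 were not analysed here. By the architecture of their products, 11 encode fibrillar collagens, 8 encode collagens of basement membranes and 23 encode others. The levels come from whole colon of 8 transplanted mice that had acute graft-versus-host disease, an attack of donor T cells on the tissues of the recipient. All 8 were wild-type BALB/c recipients that had been lethally irradiated and given bone marrow cells and T cells of C57BL/6 donors on day 0. The 4 mice of the PBS group and the 4 mice of the hBD-2 group differed in what they received by mouth from day 0 to day 7, PBS or 1.2 mg/kg hBD-2. RNA was from colon of day 7. The peptide hBD-2 (human beta-defensin 2) is an antimicrobial product of epithelia, and the question was what it does to gene expression in the diseased colon. Colon without the disease was not analysed here, and age, sex and the segment of colon are not given in the sources used here.

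Collagens are the main structural proteins of the extracellular matrix. Their chains wind around each other into a helix, made possible by a glycine at regular spacing along the chain. Fibrillar collagens assemble into the tensile fibres of the submucosa and lamina propria, type IV collagen forms the sheet under epithelium, endothelium and muscle cells, and type VI collagen forms fine beaded filaments around cells. In the gut, fibroblasts make most fibrillar and type VI collagen, and epithelial, endothelial and smooth muscle cells contribute to basement membranes.

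Differences below are log2 units, hBD-2 minus PBS, from limma's moderated test fitted over all 19505 genes with Benjamini-Hochberg adjustment, and n is 4 mice in each group. Medians of the 8 arrays ran from 6.77 to 6.82 log2 units. The 12 epithelial genes checked as markers of the colon, among them Muc2 and Cdx2, were all measured, and their mean lay between 11.15 and 11.25 log2 units in PBS mice and between 11.24 and 11.36 in hBD-2 mice. Among the hBD-2 mice, numbers 1 and 3 were unlike the other 6 mice. Hoxb13, which marks the posterior end of the gut, was at 9.06 and 9.32 log2 units in them and between 4.73 and 7.22 in the others. Hoxd13, Insl5, Scnn1g and Scnn1b were also highest in hBD-2 1 and 3. Hoxd10, Hoxd11, Hoxd12 and Hoxa13 lay within the range of the other mice, with Hoxd10 at 4.69 and 4.63 in them beside 3.88 to 5.93 in the others. The mean of 9 genes of distal colon position, relative to each gene's mean over the 8 arrays, was 1.14 and 0.88 in them and between -0.47 and -0.16 in the others. The main counts, list medians and genes are also given without these arrays. The labels name no batch.

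No collagen gene passed an adjusted p of 0.05, a threshold that 0.0410% of all genes passed, all of them lower in hBD-2 mice. Differences between the classes were not tested. The chains of the common fibrils (types I, III and V) and all 6 chains of type VI had negative differences, except Col5a3. The chains of type IV went both ways, and the collagens that sit on fibrils or in cell membranes mostly lay near 0 or above it. At an unadjusted p under 0.05, 13 collagen genes (31% of the 42) were lower and 2 (4.76%) were higher. Over all genes measured the same shares were 5.98% and 5.85%. In 5 collagen genes the groups did not overlap, with the hBD-2 mice lower (11.9%, against 3.60% of all genes), and in none did they separate with the hBD-2 mice higher (2.80% of all genes). Genes above the median level of the array were tilted the same way as a whole, with 7.34% lower and 3.65% higher, and of the 19 collagen genes above it 36.8% were lower and 5.26% higher. Genes at or below it were tilted the other way, with 4.62% lower and 8.06% higher, and of the 23 collagen genes there 26.1% were lower and 4.35% higher. The 13 became 8 without PBS 2 and 7 without hBD-2 3. They were also 7 when hBD-2 1 was left out along with hBD-2 3, where 5.48% of all genes were lower. The 5 became 9 without hBD-2 2 and 8 without hBD-2 4, counting the lower side. Leaving out an array cannot lower this count, and the shares of all genes in these settings are not given here. In bulk tissue, fewer cells of a type and less RNA per cell cannot be told apart.

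**Figure D1:**
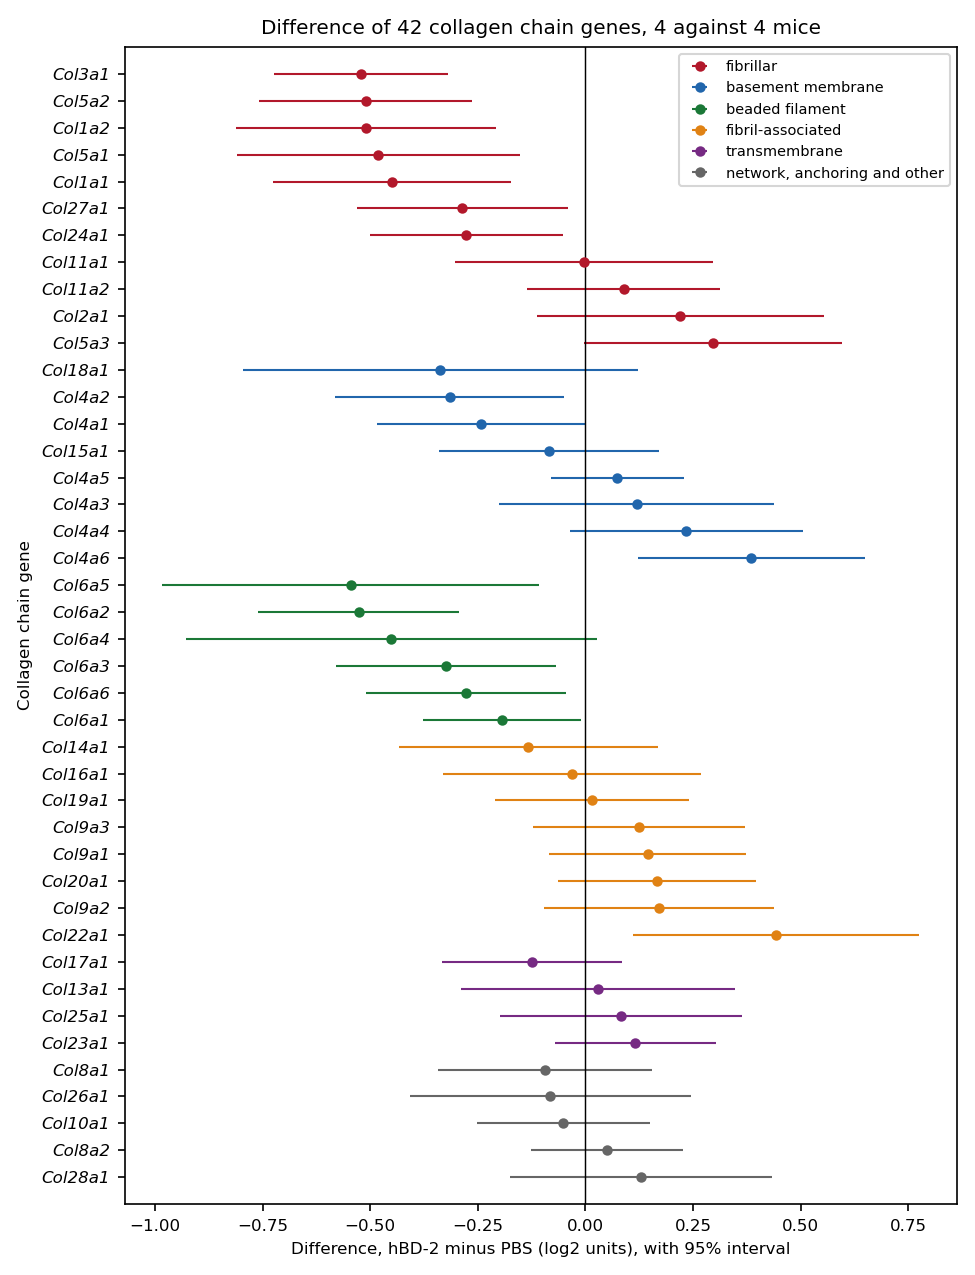
Difference between hBD-2 and PBS mice (log2 units, x axis) for each of the 42 collagen chain genes (y axis), coloured by class, with 95% intervals from limma. The lowest points are Col6a5 at -0.55 and Col6a2 at -0.53, and the highest are Col22a1 at 0.44 and Col4a6 at 0.39.

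Fibrillar collagens had a median difference of -0.29 over their 11 genes, beside 0.012 over all genes measured. Of the 11, 7 were lower at an unadjusted p under 0.05 (63.6%, against 5.98% of all genes) and none was higher, and none passed adjustment. Without hBD-2 1 and 3, 5 of the 11 were lower and 2 were higher, beside 5.48% and 7.35% of all genes. Col3a1 encodes the chain of type III collagen, a homotrimer of compliant, cell-rich tissue such as gut wall. It was at 10.75, 10.66, 10.74 and 10.79 log2 units in PBS mice 1 to 4 and at 10.06, 10.45, 10.19 and 10.15 in hBD-2 mice 1 to 4. The groups did not overlap, and hBD-2 2 was the hBD-2 mouse closest to the PBS range. The means were 10.74 ± 0.056 and 10.21 ± 0.17 (SD, n = 4), a difference of -0.52 (SE 0.091, 95% interval -0.72 to -0.32) or 1.43-fold lower in hBD-2 mice, with an adjusted p of 0.0782 by limma. This was the lowest adjusted p of the 42 genes. It ranged from 0.00561 to 0.252 over the settings tried. It was 0.00561 when limma's prior followed intensity and was robust, a setting in which 0.436% of all genes passed as lower and 0.0308% as higher. It was 0.0378 with array weights, 0.0418 without the lowest 50% of genes and 0.0497 without hBD-2 2.

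Col1a1 and Col1a2 encode the chains of type I collagen, the bulk of most fibres. Col1a1 was at 9.44, 9.40, 9.34 and 9.53 log2 units in PBS mice and at 8.84, 9.24, 8.66 and 9.16 in hBD-2 mice, again without overlap. Col1a2 was at 9.31, 9.49, 9.52 and 9.46 in PBS mice and at 8.60, 9.32, 8.84 and 8.97 in hBD-2 mice, where hBD-2 2 lay just above the lowest PBS mouse. The differences were -0.45 (SE 0.12, adjusted p = 0.218 by limma) and -0.51 (SE 0.14, adjusted p = 0.205 by limma). In both genes hBD-2 1 and hBD-2 3 were the lowest of the 8 mice.

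Type V collagen is a minor partner that is buried in type I fibrils and limits their diameter, and its chains differed among themselves. Col5a2 was at 6.89, 6.77, 7.03 and 6.94 log2 units in PBS mice and at 6.11, 6.59, 6.35 and 6.53 in hBD-2 mice, with no overlap and a difference of -0.51 (SE 0.11, adjusted p = 0.133 by limma). Col5a1 was at 7.01, 6.91, 6.88 and 6.93 in PBS mice and at 6.46, 6.92, 6.09 and 6.33 in hBD-2 mice. Here hBD-2 2 lay within the PBS range and the other hBD-2 mice below it, and the difference was -0.48 (SE 0.15, adjusted p = 0.253 by limma). Col5a3, the chain of a rarer form of type V, was at 5.71, 5.87, 5.70 and 5.94 in PBS mice and at 5.82, 6.02, 6.05 and 6.51 in hBD-2 mice. Its difference had the other sign, 0.30 (95% interval -0.0037 to 0.60), and only hBD-2 1 overlapped the PBS range.

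The remaining fibrillar genes included more that lay near 0. Col24a1 and Col27a1, chains of developmental collagens of cartilage and bone, were at -0.28 (SE 0.10) and -0.29 (SE 0.11), each with groups that overlapped. The level of Col24a1 was low, with a mean of 4.11 log2 units over the 8 mice (percentile 12.3 of all genes). Col2a1, the main collagen of cartilage, was at 0.22 (SE 0.15). Col11a1 and Col11a2, which nucleate cartilage fibrils, were at -0.0031 (SE 0.13) and 0.089 (SE 0.10).

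The start regions of 4 fibrillar genes are shown because they contrast chains with negative differences (Col3a1, Col1a2, Col5a1) with the chain of opposite sign (Col5a3). Each is the 250 bases before the annotated start, 5′ to 3′ on the gene's strand, from RefSeq on GRCm38.p6. They lie at chr1:45311288-45311537 and chr6:4505368-4505617 on the plus strand, at chr2:27886175-27886424 on the plus strand and at chr9:20815068-20815317 on the minus strand. Capitals mark matches to CCAAT or TATAAA on either strand.
Col3a1: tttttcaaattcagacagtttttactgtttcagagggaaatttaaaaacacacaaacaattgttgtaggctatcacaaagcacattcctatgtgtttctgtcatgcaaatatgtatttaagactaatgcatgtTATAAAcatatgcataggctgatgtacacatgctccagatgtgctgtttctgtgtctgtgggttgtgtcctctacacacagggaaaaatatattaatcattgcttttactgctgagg
Col1a2: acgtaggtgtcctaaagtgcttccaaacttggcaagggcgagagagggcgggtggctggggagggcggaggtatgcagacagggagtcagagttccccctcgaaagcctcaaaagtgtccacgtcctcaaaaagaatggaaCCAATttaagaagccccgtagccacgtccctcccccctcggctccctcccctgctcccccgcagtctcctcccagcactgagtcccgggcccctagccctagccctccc
Col5a1: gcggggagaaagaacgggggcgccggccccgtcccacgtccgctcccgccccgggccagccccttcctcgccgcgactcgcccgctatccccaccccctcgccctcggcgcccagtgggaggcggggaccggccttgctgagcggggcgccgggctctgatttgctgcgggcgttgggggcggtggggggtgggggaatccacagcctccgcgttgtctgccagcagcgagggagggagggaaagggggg
Col5a3: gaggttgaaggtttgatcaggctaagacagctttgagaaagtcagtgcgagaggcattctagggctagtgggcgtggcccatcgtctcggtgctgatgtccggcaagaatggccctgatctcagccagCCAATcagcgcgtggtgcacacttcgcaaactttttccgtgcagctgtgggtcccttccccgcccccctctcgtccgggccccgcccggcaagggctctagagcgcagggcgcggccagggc
CCAAT (or ATTGG on the other strand), the letters of a common promoter box, occurs 109 bases before the start of Col1a2 and 122 bases before that of Col5a3, chains with opposite signs. TATAAA (or TTTATA) occurs 117 bases before the start of Col3a1. Neither is in the window of Col5a1. GGGCGG (or CCGCCC), the letters of a GC box, occurs in the windows of Col1a2, Col5a1 and Col5a3. In these 4 windows no match to one motif overlaps a match to another. Of the 42 collagen genes 34 had an entry. CCAAT was in 35.3% of these 34 and in 39.2% of the 15691 measured genes with an entry, TATAAA in 14.7% and 13.5%, and GGGCGG in 58.8% and 47.7%.

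**Figure D2:**
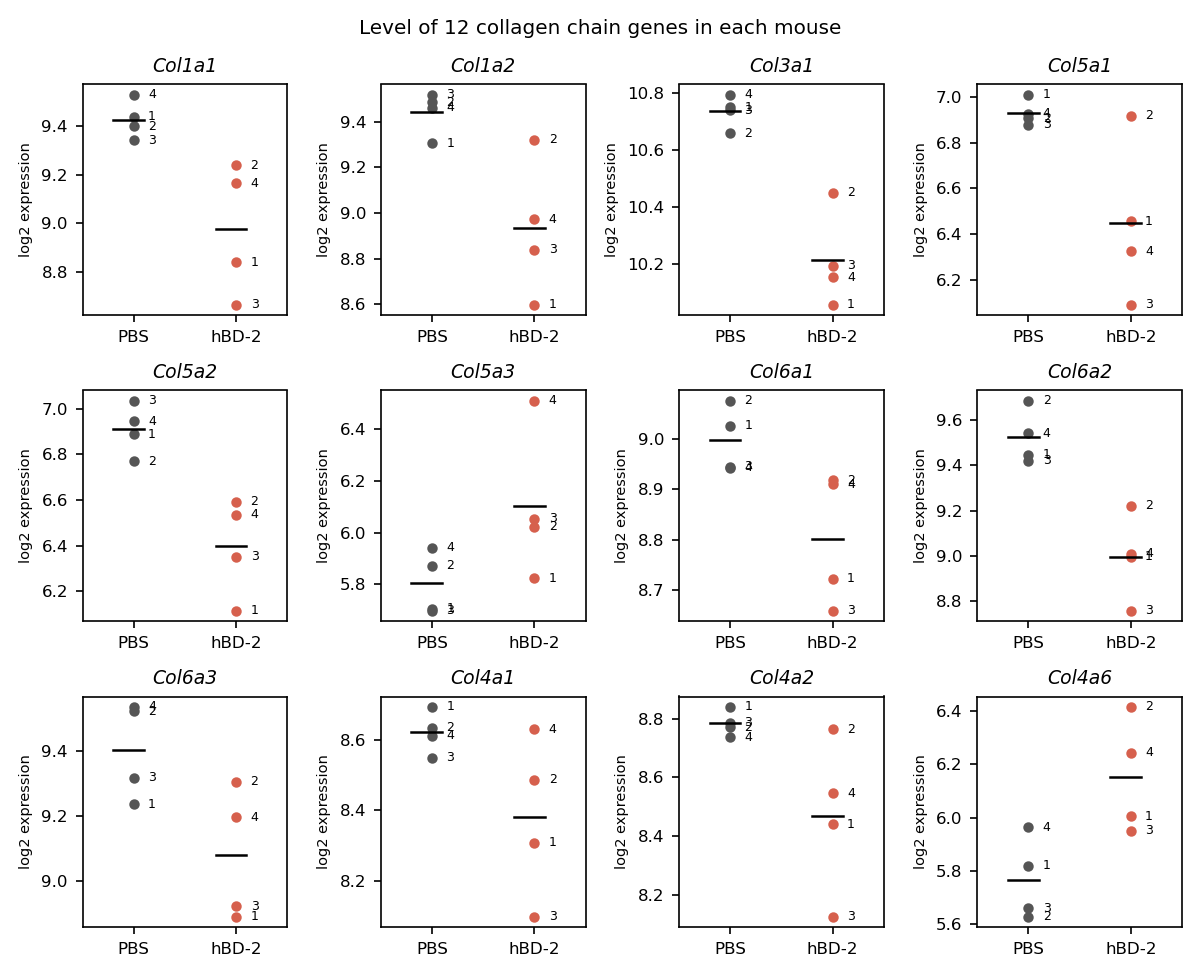
Level (log2 units, y axis; each panel has its own range, which does not start at 0) of 12 collagen chain genes in each mouse. Grey points are PBS mice, red points hBD-2 mice, digits the mouse number and bars the mean of 4; Col3a1 shows PBS mice from 10.66 to 10.79 above hBD-2 mice from 10.06 to 10.45.

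Type VI collagen had negative differences in all 6 of its chains, with a median of -0.39. At an unadjusted p under 0.05, 5 of the 6 were lower, beside 5.98% of all genes, and 2 of the 6 without hBD-2 1 and 3, beside 5.48%. Negative differences of any size made up 46.5% of all genes. The classic filament joins the products of Col6a1, Col6a2 and Col6a3. Col6a2 was at 9.45, 9.68, 9.42 and 9.54 log2 units in PBS mice and at 8.997, 9.22, 8.76 and 9.01 in hBD-2 mice. The groups did not overlap, and the difference was -0.53 (SE 0.11, 95% interval -0.76 to -0.29, adjusted p = 0.107 by limma). In the setting with the robust, intensity-dependent prior its adjusted p in limma was 0.0206, and over the settings tried it ranged up to 0.325.

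Col6a1 was at 9.03, 9.07, 8.94 and 8.94 log2 units in PBS mice and at 8.72, 8.92, 8.66 and 8.91 in hBD-2 mice, also without overlap, but only by a narrow gap. Its difference was -0.19 (SE 0.083). Col6a3, whose product carries the long globular arm of the filament, was at 9.23, 9.52, 9.32 and 9.53 in PBS mice and at 8.89, 9.30, 8.92 and 9.19 in hBD-2 mice. hBD-2 2 reached into the PBS range, and the difference was -0.32 (SE 0.11).

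Col6a4, Col6a5 and Col6a6 encode chains that can take the place of the product of Col6a3. Col6a5 had the most negative difference of the 42 genes, -0.55 (SE 0.20), and a wide spread, with 7.06, 7.07, 6.85 and 6.71 log2 units in PBS mice and 5.97, 6.51, 6.07 and 6.96 in hBD-2 mice. hBD-2 4 lay within the PBS range. Col6a4 was at -0.45 (95% interval -0.93 to 0.027), with hBD-2 4 at 6.98 and PBS 4 at 6.41 against 6.95 to 7.05 in the other PBS mice. Col6a6 was at -0.28 (SE 0.10) and at a low level, with a mean of 4.67 log2 units over the 8 mice (percentile 20.1 of all genes). In 5 of the 6 type VI genes hBD-2 1 and hBD-2 3 were the 2 lowest of the 8 mice, an order that 8.06% of all genes showed. The class mean relative to each gene's mean was 0.20, 0.27, 0.19 and 0.11 in PBS mice and -0.32, -0.088, -0.40 and 0.034 in hBD-2 mice, so that the groups did not overlap and hBD-2 4 was closest to the PBS mice.

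Basement membrane collagens had no common direction. Their median was -0.0051 over 8 genes, with 1 lower and 1 higher at an unadjusted p under 0.05, beside 5.98% and 5.85% of all genes. Col18a1, Col4a2 and Col4a1, at percentiles 81.5, 75.9 and 74.1 of all genes by level, and Col15a1, at 49.8, had negative differences. The positive members were at lower levels, with Col4a4, Col4a6, Col4a3 and Col4a5 at percentiles 43.0, 36.5, 19.8 and 18.9. Over the 3 members left without the lowest 50% of genes the median was -0.32. The part of level in this was not tested. Without hBD-2 1 and 3, none of the 8 was lower and 2 were higher, beside 5.48% and 7.35% of all genes. Col4a1 and Col4a2 encode the chains of the widespread type IV network. Col4a2 was at 8.84, 8.77, 8.79 and 8.74 log2 units in PBS mice and at 8.44, 8.76, 8.12 and 8.55 in hBD-2 mice, a difference of -0.32 (SE 0.12, adjusted p = 0.347 by limma). Col4a1 was at 8.69, 8.63, 8.55 and 8.61 in PBS mice and at 8.31, 8.49, 8.10 and 8.63 in hBD-2 mice, a difference of -0.24 (SE 0.11). In both, hBD-2 3 was lowest and at least 1 hBD-2 mouse lay within the PBS range.

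The chains of the specialised type IV networks were on the other side of 0. Col4a6, a chain of the network of smooth muscle and epithelium, was at 5.82, 5.63, 5.66 and 5.96 log2 units in PBS mice and at 6.00, 6.41, 5.95 and 6.24 in hBD-2 mice. hBD-2 3 lay just below PBS 4, and the difference was 0.39 (SE 0.12, adjusted p = 0.253 by limma). Col4a3, Col4a4 and Col4a5, best known from the kidney filter, were at 0.12 (SE 0.14), 0.23 (SE 0.12) and 0.074 (SE 0.070), with groups that overlapped. With type IV chains alone the median was 0.097.

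Types XV and XVIII are proteoglycan collagens that tie basement membranes to the tissue beneath, and type XVIII is the source of endostatin. Col18a1 varied widely between mice, with 9.18, 9.28, 8.93 and 9.36 log2 units in PBS mice and 8.66, 9.40, 8.30 and 9.04 in hBD-2 mice. hBD-2 2 was the highest of all 8 and hBD-2 3 the lowest, and the difference of -0.34 had a 95% interval of -0.80 to 0.12. Col15a1 was at -0.085 (95% interval -0.34 to 0.17). Leaving out the mice hBD-2 1 and hBD-2 3 put both genes slightly above 0, at 0.035 and 0.053.

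Fibril-associated collagens, which decorate the surface of fibrils, had a median of 0.13 over 8 genes, of which 6 had positive differences. Col22a1, a collagen of tissue junctions such as those of muscle and tendon, was at 7.56, 7.20, 7.28 and 7.70 log2 units in PBS mice and at 7.84, 7.87, 7.57 and 8.22 in hBD-2 mice. hBD-2 3 lay within the PBS range, and the difference was 0.44 (SE 0.15, adjusted p = 0.288 by limma). The cartilage collagen genes Col9a1, Col9a2 and Col9a3 and the gene Col20a1 were between 0.12 and 0.17. Col14a1, a partner of mature type I fibrils, was at -0.13 (95% interval -0.43 to 0.17), and Col16a1 and Col19a1 were at -0.031 and 0.015.

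Collagens that span the cell membrane lay between -0.12 and 0.12. They were Col17a1, of epithelial hemidesmosomes, at -0.12 (95% interval -0.33 to 0.084), Col23a1 at 0.12 (95% interval -0.070 to 0.30), Col13a1 at 0.030 and Col25a1 at 0.083. Of the rest, the network-forming Col8a1 and Col8a2 were at -0.094 and 0.050, Col10a1, of hypertrophic cartilage, at -0.052, Col26a1 at -0.082 and Col28a1 at 0.13. Groups overlapped in all of these, and no unadjusted p was under 0.05.

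**Figure D3:**
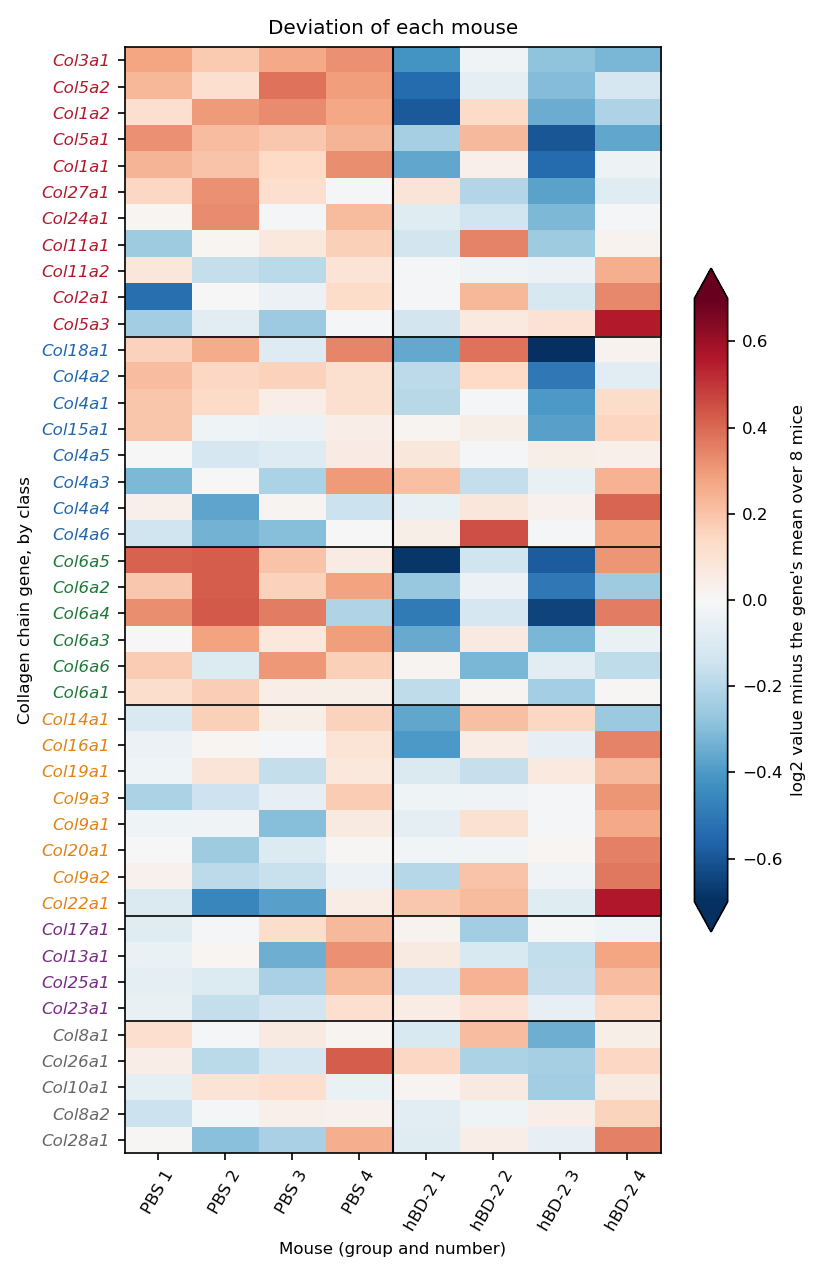
Deviation of each mouse (columns) from the gene's mean over 8 mice (log2 units, colour; values past the ends of the scale take the end colours) for the 42 collagen chain genes (rows), with classes separated by lines. hBD-2 1 and hBD-2 3 are the 2 lowest mice in 13 of the 42 genes.

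Among the hBD-2 mice the low collagen values gathered in 2 animals. hBD-2 1 and hBD-2 3 were the 2 lowest of 8 in 13 of the 42 genes (31%, against 8.06% of all genes) and the 2 highest in none (6.41% of all genes). The mean over the fibrillar genes relative to each gene's mean was 0.037, 0.13, 0.090 and 0.19 in PBS mice and -0.22, 0.053, -0.28 and 0.0021 in hBD-2 mice. It overlapped between the groups through hBD-2 2.

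When these 2 mice were left out, the chains of types I, III and V that had been lower and all 6 type VI chains still had negative differences. All of these except Col6a6 lay closer to 0. The fibrillar median was -0.23, the type VI median -0.17, the basement membrane median 0.052 the fibril-associated median 0.23 and the median over all 23 other collagens 0.083, beside 0.020 over all genes. Col3a1 was at -0.43, Col6a2 at -0.41, Col5a2 at -0.35, Col5a1 at -0.31, Col1a2 at -0.30 and Col1a1 at -0.23. Col6a5 was at -0.19, Col6a4 at -0.11, Col6a3 at -0.15, Col6a1 at -0.083, Col4a2 at -0.13 and Col4a1 at -0.064. Col6a6 lay further from 0, at -0.39. The 3 most positive genes also lay further from 0, with Col22a1 at 0.61, Col4a6 at 0.56 and Col5a3 at 0.46. Genes with smaller positive differences did so too in several cases, with Col2a1 at 0.40, Col9a2 at 0.37, Col4a4 at 0.36, Col25a1 at 0.27 and Col28a1 at 0.26. Besides Col15a1 and Col18a1, the sign changed to positive in Col11a1 (-0.0031 to 0.19), Col16a1 (-0.031 to 0.18), Col8a1 (-0.094 to 0.083) and Col10a1 (-0.052 to 0.036). In that comparison of 4 with 2 mice, 7 collagen genes were lower and 6 higher at an unadjusted p under 0.05, while over all genes the shares were 5.48% and 7.35%. In 7 genes the groups did not overlap on the lower side (16.7%, against 9.97% of all genes) and in 7 on the higher side (11.8% of all genes).

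**Figure D4:**
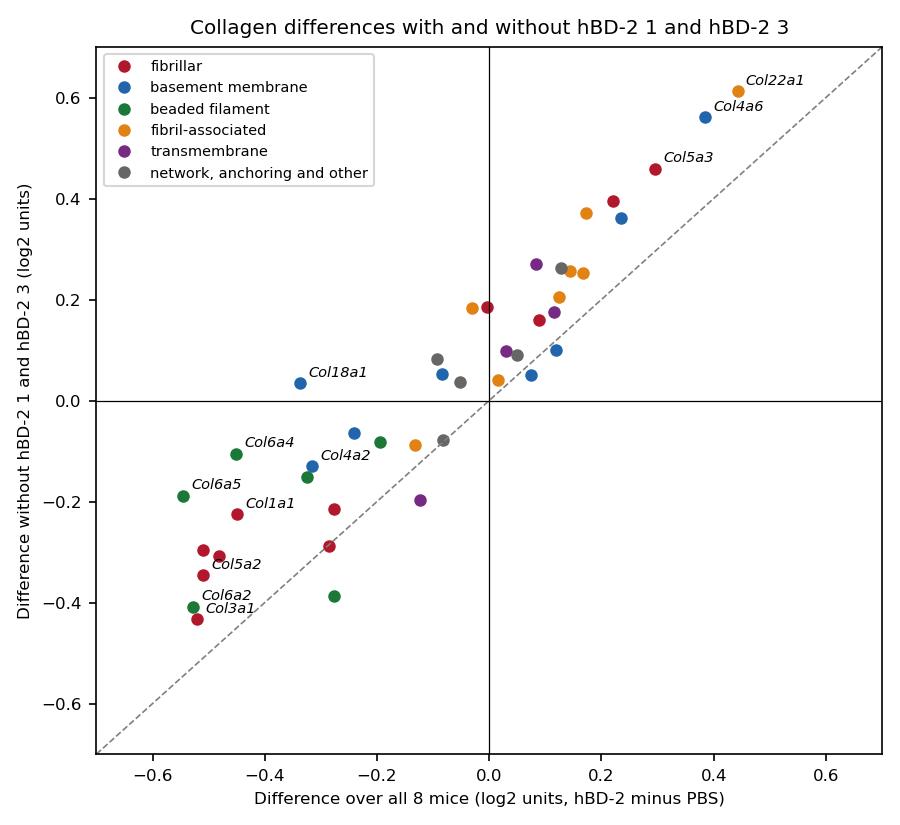
Difference of each collagen chain gene over all 8 mice (x axis, log2 units) and without hBD-2 1 and hBD-2 3 (y axis, log2 units), coloured by class, with the line of equal values dashed. Col3a1 is at -0.52 and -0.43, and Col18a1 at -0.34 and 0.035.

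Several collagen genes lie side by side in the genome. By the RefSeq annotation of GRCm38.p6, 8 pairs of collagen genes were direct neighbours among protein-coding genes, and in all 8 the differences had the same sign. Of 17345 neighbouring pairs of measured genes, 53.3% had the same sign. The pairs were Col3a1 with Col5a2 (-0.52 and -0.51), Col6a2 with Col6a1 (-0.53 and -0.19), Col6a6 with Col6a5 and Col6a5 with Col6a4 (-0.28, -0.55 and -0.45), and Col4a1 with Col4a2 (-0.24 and -0.32). On the positive side were Col4a4 with Col4a3 (0.23 and 0.12), Col4a6 with Col4a5 (0.39 and 0.074) and Col9a1 with Col19a1 (0.14 and 0.015). The pairs were looked at after the differences had been seen, Col6a5 stands in 2 of them, and the differences of Col4a3 and Col19a1 are smaller than their standard errors. Chains that share a molecule need not be neighbours, since Col1a1 and Col1a2, or Col5a1 and Col5a2, lie apart.

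The list of folding and modification held mostly enzymes and chaperones that act on the chains in the endoplasmic reticulum. Of 20 measured genes, 13 had negative differences (65%, against 46.5% of all genes), and none passed adjustment. At an unadjusted p under 0.05, 5 were lower (25%, against 5.98% of all genes) and 1 was higher (5%, against 5.85%). Serpinh1, the collagen chaperone of the endoplasmic reticulum, was at 7.98, 8.23, 7.93 and 8.08 log2 units in PBS mice and at 7.19, 7.48, 7.42 and 7.46 in hBD-2 mice. The highest hBD-2 mouse was below the lowest PBS mouse, with a difference of -0.67 (SE 0.094, adjusted p = 0.0535 by limma). Over the other 6 mice it was -0.59. The prolyl hydroxylase gene P3h2 was at -0.70 (SE 0.18) and the folding enzyme gene Fkbp14 at -0.48 (SE 0.14). Creb3l1, a transcription factor for collagen genes that was kept in this list, was the gene counted as higher, at 0.35 (SE 0.12). Over the other 6 mice 3 genes were lower and none higher, beside 5.48% and 7.35% of all genes. There P3h2 was at -0.49, Fkbp14 at -0.40 and Creb3l1 at 0.22.

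Maturation and cross-linking genes had a median of -0.29 over 15 genes. At an unadjusted p under 0.05, 6 were lower (40%, against 5.98% of all genes) and none was higher (5.85% of all genes). Lox, which cross-links fibrils, was at -1.02 (SE 0.28), and at -0.57 over the other 6 mice. Pcolce, an enhancer of propeptide removal, was at -0.50 (SE 0.12), the proteoglycan gene Bgn at -0.33 (SE 0.10) and the collagen chaperone gene Sparc at -0.40 (SE 0.14). Without hBD-2 1 and 3 the median was -0.12 and 2 of the 15 were lower, beside 5.48% of all genes. There Pcolce was at -0.41, Bgn at -0.26 and Sparc at -0.19.

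Receptors and uptake genes had a median of -0.30 over 10 genes. At an unadjusted p under 0.05, 3 were lower (30%, against 5.98% of all genes). Without those 2 mice the median was -0.10 and 1 was lower, beside 5.48% of all genes. The endocytic collagen receptor Mrc1, also a macrophage marker, was at -0.72 (SE 0.11, with an adjusted p of 0.0608 in limma). The receptor kinase gene Ddr2 stood at -0.30 (SE 0.098), the leukocyte collagen receptor gene Lair1 at -0.42 (SE 0.15) and Mrc2, for a collagen uptake receptor of fibroblasts, at -0.30 (SE 0.14). Their values over the other 6 mice were -0.19 for Ddr2, -0.45 for Lair1, -0.045 for Mrc2 and -0.62 for Mrc1.

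Collagen-cleaving proteases and their inhibitors had negative differences in all 10 genes, from -0.83 to -0.0034, with a median of -0.43. At an unadjusted p under 0.05, 9 of the 10 were lower, beside 5.98% of all genes. Without hBD-2 1 and 3 this count was 2 of 10, beside 5.48% of all genes, and the median was -0.28. The collagenase genes Mmp13 and Mmp8, the latter also a neutrophil marker, were at -0.83 (SE 0.23) and -0.83 (SE 0.27), the membrane collagenase Mmp14 at -0.27 (SE 0.097) and the inhibitor Timp2 at -0.45 (SE 0.11). Over the other 6 mice Mmp13 was at -0.44, Mmp8 at -0.58, Mmp14 at -0.18 and Timp2 at -0.31. None passed adjustment.

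The other components of basement membranes differed from the type IV chains in having more members on the lower side in this count, a contrast that was not tested. Of 13 measured, 10 had negative differences (76.9%, against 46.5% of all genes), and none passed adjustment. At an unadjusted p under 0.05, 6 were lower (46.2%, against 5.98% of all genes). In each of these 6 the groups did not overlap (46.2%, against 3.60% of all genes). The median was -0.33. Over the other 6 mice it was -0.12, and 3 of the 13 were lower at an unadjusted p under 0.05, beside 5.48% of all genes. The laminin genes Lamb1, Lamc1 and Lama2 were at -0.70 (SE 0.16), -0.39 (SE 0.094) and -0.51 (SE 0.14), and the linker gene Nid1 was at -0.37 (SE 0.11). These were at -0.44, -0.31, -0.40 and -0.23 over the other 6 mice.

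**Figure D5:**
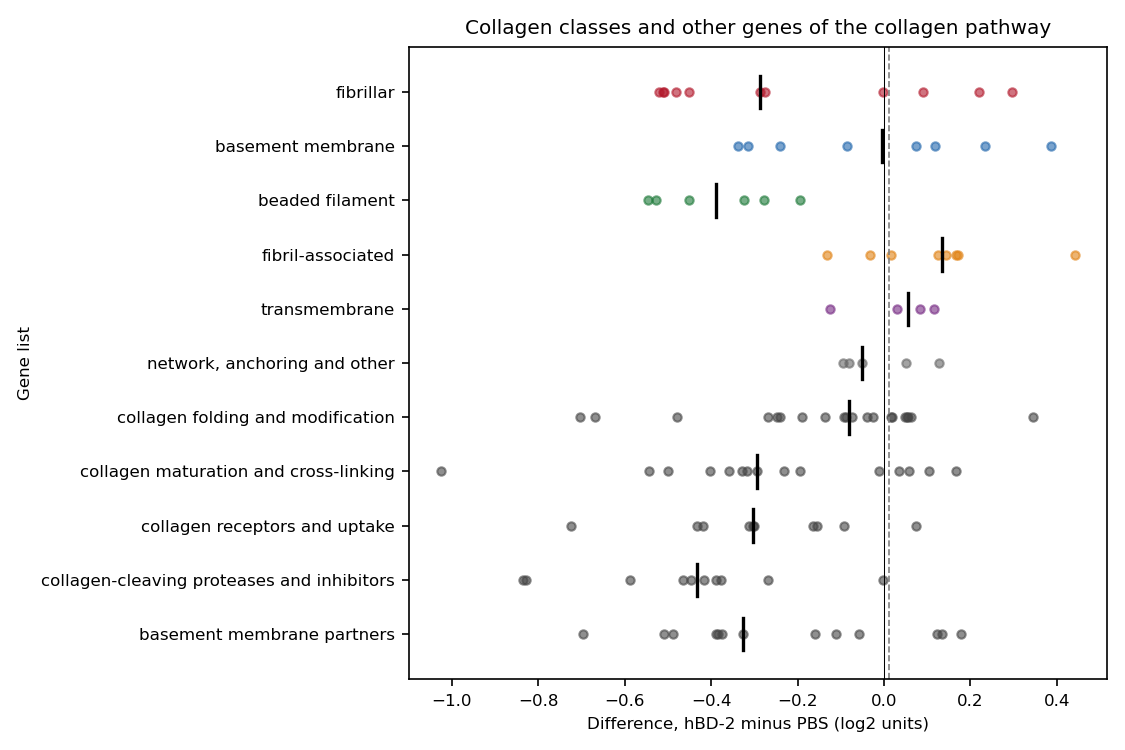
Difference between hBD-2 and PBS mice (log2 units, x axis) for each gene (points) of the 6 collagen classes and of 5 lists of other collagen pathway genes (y axis). Black bars are list medians, from -0.43 for proteases and inhibitors to 0.13 for fibril-associated collagens, and the dashed line is the median of all genes, 0.012.

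Markers of fibroblasts, endothelium, pericytes and smooth muscle also had mostly negative differences. So did those of macrophages, while those of colon epithelium were mostly positive. Over all genes 46.5% had negative differences, and 5.98% were lower and 5.85% higher at an unadjusted p under 0.05. Of 14 measured fibroblast markers 12 had negative differences, and 7 were lower and 1 higher at that p. Among them Vim, the filament of mesenchymal cells, was at -0.54 (SE 0.095) and the proteoglycan gene Lum at -0.87 (SE 0.20). The mean of the 14 lay between 7.77 and 7.94 log2 units in PBS mice and between 7.45 and 7.74 in hBD-2 mice. Endothelial markers were negative in 9 of 9, with means of 7.04 to 7.18 and 6.69 to 7.04, and macrophage markers in 8 of 8, with means of 7.84 to 8.19 and 7.32 to 7.61, and here Aif1 fell past the threshold, by 0.96 (SE 0.13, adjusted p = 0.0467 by limma). Pericyte markers were negative in 6 of 6, with means of 7.59 to 7.90 and 7.08 to 7.85, and their median of -0.30 was 0.041 with the 2 mice left out. Smooth muscle markers were negative in 7 of 8, with none under an unadjusted p of 0.05 and means of 10.56 to 10.82 and 10.17 to 10.75. Neutrophil markers were negative in 4 of 7, with means of 5.73 to 6.43 and 5.63 to 6.01. Colon epithelium markers were negative in 3 of 12, and 3 were higher at an unadjusted p under 0.05. Without hBD-2 1 and 3, 5.48% of all genes were lower and 7.35% higher at that p. The counts there were 5 lower and 1 higher for fibroblasts, 4 lower for endothelium and 4 lower for macrophages, and none was higher for colon epithelium. The medians there were -0.16 for fibroblasts, -0.20 for endothelium, -0.35 for macrophages and -0.072 for smooth muscle. The part of these cell types and of the 2 arrays in the collagen differences was not tested.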

How the data were processed

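RNA from whole colon of 8 mice was measured on Affymetrix arrays, 1 per mouse, and groups and replicate numbers came from the sample titles. The deposited values are log2 expression for 22203 probe sets, made by the authors with the R package oligo and RMA, per the submitters' processing notes, which give no version. RMA equalises the distributions of the arrays, so an overall shift between mice would not be visible. The build of the array design and signal over background are not given in the sources used here. GEO's platform table gave a gene for 19572 probe sets (all matched to RefSeq by gene ID, no symbol changed) and none for 2631. Where a gene had several probe sets (55 genes), that with the highest mean was used, leaving 19505 genes.

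Differences were tested two-sided in limma 3.58.1 (lmFit, eBayes; R 4.3.3), with Benjamini-Hochberg adjustment over all genes and a threshold of 0.05. The test was checked on simulated arrays of 4 against 4 before use, with 200 of the 19505 genes changed. It passed 49.6% of changes of 0.5 log2 units, 92.3% of changes of 1 and 99% of changes of 2, in the right direction. The most negative collagen difference was -0.55, so changes of the size seen in collagen genes can be missed. Each array is a separate mouse, and p-values measure only the spread between these mice. The members, classes, lists and the arrays left out were chosen with earlier results of these data known. The rule named fixed collagens, all members at an unadjusted p under 0.05, the extremes of each class and 4 genes per pathway list by p, and the other members are named so that all are accounted for. Figures used matplotlib 3.10.9.

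Alternatives tried were a prior in limma that follows intensity and is robust, a filter on the lowest 25% or 50% of genes, median centring, quantile normalization repeated, probe sets averaged or all kept, weighted arrays, a block on replicate number, a distal colon covariate, leaving out single arrays or hBD-2 1 and hBD-2 3, other thresholds and an exact permutation test.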

Additional observations from a re-analysis of the deposited data

Results flagged for a closer look

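In each group of 4 mice, the gap between the farthest mouse and its nearest neighbour was compared with the range of the group, over the 84 groups of the 42 collagen genes. Chance flags about 1 in 20 groups, and 5 of the 84 were flagged, close to that share. Col10a1 was at 3.67 log2 units in hBD-2 3, against 3.93 to 3.98 in the other hBD-2 mice. Col6a4 was at 6.41 in PBS 4, against 6.95 to 7.05 in the other PBS mice. In hBD-2 4, Col11a2 was at 7.94, Col20a1 at 7.74 and Col9a3 at 7.72, each the highest of its group, where the other hBD-2 mice lay at 7.65 to 7.68, 7.36 to 7.40 and 7.38 to 7.40.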

How the results depend on the processing

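Of 441 values of the 24 collagen genes named by rule under the alternatives, 429 kept their sign and side of the threshold, 5 passed it newly (Col3a1 in 4 settings and Col6a2 in 1) and 7 changed sign, all in Col15a1, Col18a1 and Col8a1. Col15a1 was at 0.032 with the distal colon covariate, 0.053 without hBD-2 1 and hBD-2 3 and 0.027 without hBD-2 3. Col8a1 was at 0.056, 0.083 and 0.0045 in the same settings, and Col18a1 at 0.035 without hBD-2 1 and hBD-2 3. With single arrays left out, Col15a1 ranged from -0.15 to 0.027 and Col8a1 from -0.18 to 0.0045. Other wide ranges were -0.23 to -0.034 for Col14a1, 0.032 to 0.23 for Col28a1, -0.52 to -0.15 for Col18a1, 0.16 to 0.39 for Col5a3, -0.32 to -0.15 for Col4a1, -0.41 to -0.20 for Col4a2 and -0.17 to -0.065 for Col17a1. The values of Col18a1, Col4a1 and Col4a2 nearest 0 were those without hBD-2 3, and that of Col5a3 the one without hBD-2 4. By the exact permutation test the smallest possible p of 0.0286, two-sided, was reached by Col1a1, Col3a1, Col5a2, Col6a1 and Col6a2. It is reached only where the groups do not overlap, so it repeats that count and adds nothing to it. Of all genes, 6.41% had groups that did not overlap, in either direction.

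The 8 genes past the threshold over all genes became 91 with the robust prior that follows intensity, 16 and 47 without the lowest 25% or 50%, 4 with quantile normalization repeated, 68 with array weights, 5 over all probe sets, 81 at a threshold of 0.1 and 0 without hBD-2 1 and hBD-2 3, where limma had 1069 lower and 1434 higher genes at an unadjusted p under 0.05. Collagen genes past the threshold were 2 with that prior, 1 without the lowest 50%, 1 with array weights and 1 at a threshold of 0.1. The 15 collagen genes at an unadjusted p under 0.05 became 9 of the 19 left without the lowest 50%, of which 8 were lower. The 13 lower ones were 6 with the covariate and 7 without hBD-2 1 and hBD-2 3, where 5.48% of all genes were lower. The shares of all genes with the covariate and without the lowest 50% are not given here. Collagen genes whose groups do not overlap were 14 without those 2 arrays, a count that leaving out arrays cannot lower. Of all genes, 9.97% did not overlap there with the hBD-2 mice lower and 11.8% with them higher. Medians moved in some settings. The basement membrane median was -0.16 and -0.32 without the lowest 25% or 50%, the fibrillar median -0.48 without the lowest 50%, and the median of other collagens 0.083 there and without hBD-2 1 and hBD-2 3. With fewer genes these medians run over fewer members, and the cause of the other moves was not tested.

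With single arrays left out, genes past the threshold ranged from 0 to 11 and collagen genes past it from 0 to 1. Collagen genes at an unadjusted p under 0.05 ranged from 9 to 16, the lower ones from 7 to 14, genes whose groups do not overlap from 6 to 10 and the lower ones from 5 to 9. The counts of genes without overlap cannot fall when an array is left out, and the shares of all genes in these settings are not given here.

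The replicate numbers gave correlations of deviations from -0.15 to 0.24 between same-numbered mice. Of the 4 PBS mice, 2 matched the hBD-2 mouse of their own number best. With 4 mice a group these values cannot decide whether the numbers pair the mice. With the replicate block limma passed 0 genes, and 18 collagen genes had an unadjusted p under 0.05. The share of all genes at that p with the block is not given here, so the 18 cannot be read as a stronger result. With 4 arrays a group, precision is limited throughout.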
